A study of Mus musculus with 2 samples.

Results

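The genes described here are 10 members of the BCL2 family, the proteins that decide whether mitochondria release the factors that start apoptosis. They comprise Bcl2l11, which encodes BIM and is a reported target of the microRNA miR-32, and 9 relatives on either side of the same decision: Bcl2, Bcl2l1, Mcl1, Bax, Bak1, Bbc3, Pmaip1, Bad and Bid. Every non-control probe whose RefSeq accession maps to a member was taken, which gave 17 probes in 44 spots on each array, out of 18952 genes that could be named on the array. Expression was measured in dorsolateral prostate of FVB/N mice aged 6 months. The transgenic pool held RNA of 6 ARR2PB-miR32 mice, whose miR-32 transgene is driven by the ARR2PB promoter, a modified probasin promoter used for androgen-dependent expression in prostate epithelial cells, and the wild-type pool held RNA of 6 mice of that strain without the transgene. Both pools were hybridised together on 2 two-colour arrays of 1 slide with the dyes exchanged, the transgenic pool in Cy3 on array 1 and in Cy5 on array 2. Since 1 pool stands for each genotype, the difference has no biological replicate and carries no p-value. Every ± on a ratio is the SD over the 2 arrays, a technical error, unless said otherwise.

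BCL2, BCL-XL (from Bcl2l1) and MCL1 protect cells by binding and restraining BAX and BAK, the effectors that open the outer mitochondrial membrane and let cytochrome c escape. BH3-only proteins such as BIM, PUMA (Bbc3), NOXA (Pmaip1), BAD and BID relay stress signals by occupying the protective members or by activating the effectors directly. In prostate this balance is known for its part in the loss of epithelial cells after androgen withdrawal. A microRNA guides Argonaute to messages that pair with its seed, which can lower the message, the protein made from it, or both, and the arrays read RNA and not protein.

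The seed (bases 2 to 8, in capitals) is the part of miR-32 that would select Bcl2l11, and the mature mouse microRNAs that share it are shown because endogenous relatives can act on the same targets. The RefSeq sequences are on build GRCm38.p6, where mature miR-32-5p lies on the minus strand at chr4:56895272-56895293.
mmu-miR-32-5p: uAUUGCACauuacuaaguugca
mmu-miR-25-3p: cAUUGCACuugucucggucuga
mmu-miR-92a-3p: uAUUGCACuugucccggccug
mmu-miR-92b-3p: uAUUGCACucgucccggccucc
mmu-miR-363-3p: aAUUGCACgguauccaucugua
mmu-miR-367-3p: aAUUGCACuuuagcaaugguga
These 6 were the only ones with that seed among 1679 mature sequences in the table. Outside the seed they differ, and the other 5 matched miR-32-5p at 11 to 13 positions, seed included, when aligned at the 5′ end. Neither mature miR-32 nor target sites in the messages were analysed here.

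Detection asked that the same pool, either or both, be well above background on each array, and a gene took the value of its brightest detected probe. For a call, the ratio of transgenic over wild type had to reach 1.5-fold (0.58 on the log2 scale) the same way on each array, a rule that called 2.21% of 10435 detected genes, 0.91% as higher and 1.3% as lower. That background of 95 higher and 136 lower genes depends on normalization, signal and detection filter. The split was 2 to 554 with median centring and 247 to 627 with the scanner's own log ratios. It was 178 to 119 in the authors' deposited table, which holds only probes well above background in both pools. With the normalization used here and detection in both pools required, it was 94 to 76. The median log2 ratio of all detected genes was −0.06, and −0.57 with median centring. The median SD over the 2 arrays was 0.28. In opposite directions on the 2 arrays, that is following the dye, 318 genes reached 1.5-fold on both. That was more than the 231 genes that passed the rule. Pearson's r between the arrays was −0.03 across genes, which are not independent replicates. It was 0.27 by the scanner's own log ratios and 0.24 in the authors' deposited table. Transgenic signals were well above background at 58.3% of spots on array 1 and 21.1% on array 2, against 42.1% and 57% for wild-type signals, and the low share was that of Cy5 on array 2. Detected were 11 of 11 luminal markers, among them Pbsn and Tgm4, and 8 of 8 basal markers, beside 10435 of 18952 genes. Fibroblast (8 of 8) and smooth muscle (7 of 7) markers were detected as fully, so detection does not test the tissue label. Of the luminal and basal markers Hoxb13 was lower (−0.69 ± 0.03) and the others passed in neither direction. The medians were −0.0076 for the luminal and −0.16 for the basal list.

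No member passed the rule in either direction. Of the 10 members, 8 were detected (Bcl2l11, Bcl2, Bcl2l1, Mcl1, Bax, Bak1, Bbc3 and Bid), and Pmaip1 and Bad were not. With 2.21% of all genes called, the absence of a call among 8 genes does not set the family apart. None of the 8 passed either by the scanner's own log ratios, which called 8.38% of genes. By role, the medians were −0.0085 for the protective members, −0.20 for the effectors and −0.06 for the BH3-only members detected. The mean log2 ratios of the 8 ran from −0.34 for Bcl2l1 to 0.17 for Bid, with a median of −0.08, beside −0.06 for all detected genes. All 8 lay between the 5th and 95th percentiles of detected genes (−0.54 and 0.43). Bax, Bak1 and Bcl2l11 were below 0 on both arrays, Bid was above 0 on both, and the signs of Bcl2, Bcl2l1, Mcl1 and Bbc3 differed between the arrays, as for 54.6% of all detected genes. In whole tissue, fewer cells of a type and less RNA per cell cannot be told apart.

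**Figure D1:**
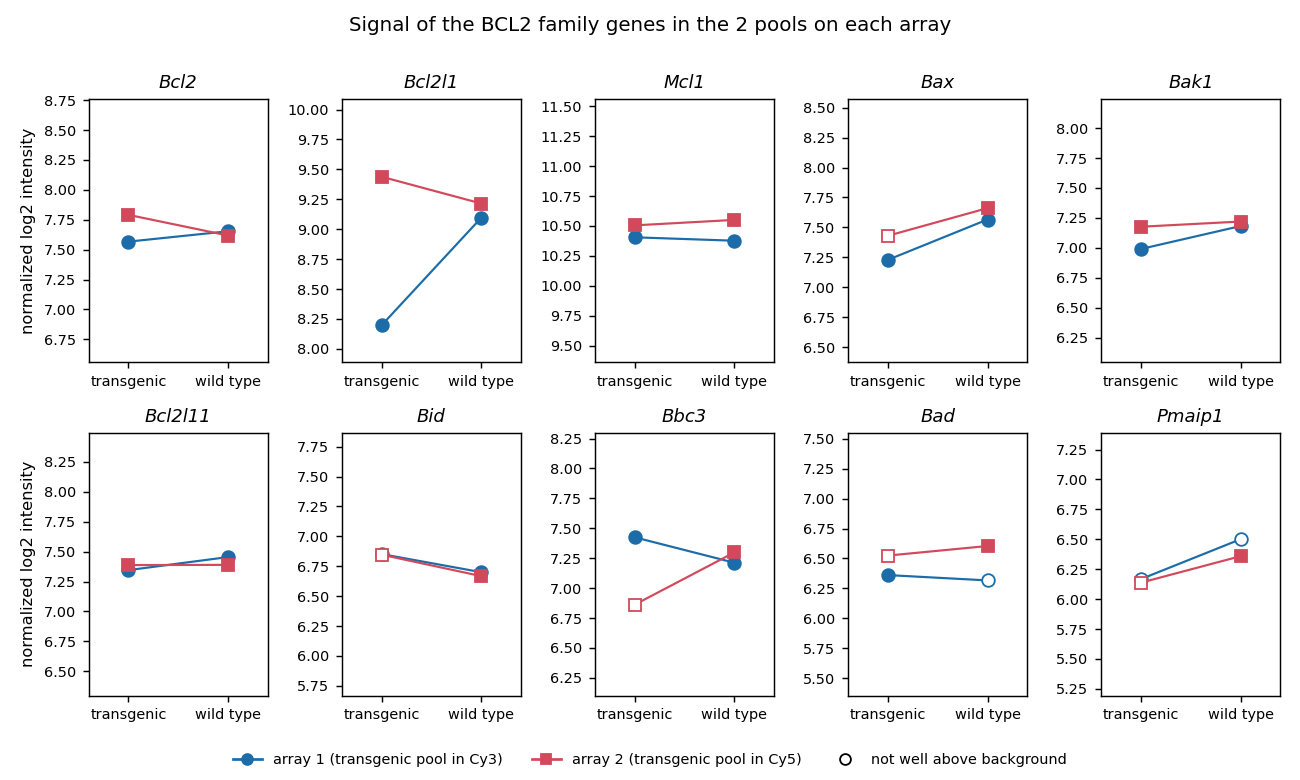
Normalized log2 intensity (vertical axis, 2.2 log2 units in each panel) of the 10 genes in the transgenic pool and the wild-type pool on array 1 (circles) and array 2 (squares), with open symbols where the signal was not well above background. The lines of Bcl2l11 and Mcl1 are nearly flat on both arrays, whereas those of Bcl2l1 slope in opposite directions, with 8.20 in the transgenic and 9.10 in the wild-type pool on array 1, and 9.44 in the transgenic and 9.21 in the wild-type pool on array 2.

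Bcl2l11 was measured at nearly the same level in the pools. Its detected probe read 7.35 and 7.39 on arrays 1 and 2 in the transgenic pool, against 7.45 and 7.39 in the wild-type pool (normalized log2 intensity), so that the pools met on array 2. Signals were well above background in each pool on each array, from 1 spot per array. The transgenic signal on array 2 was dim, at 29 intensity units above local background. Bax had 28.94 units there, with 3 of 8 spots well above background. The ratio of Bcl2l11 on array 2 therefore rests on a weak signal. The log2 ratio was −0.11 on array 1 and −0.0017 on array 2, a mean of −0.06 ± 0.08, which leaves the transgenic level at 96.2% of the wild-type level. The offset of 50 added in the background correction pulls ratios of signals this dim towards 0. The scanner software gave ratios of −0.16 and −0.07 for the same spots, with its own error estimates of 0.22 and 0.31. The mean stayed between −0.13 and −0.0017 in every alternative other than median centring, which put it at −0.46, beside −0.57 for the median gene. Alternatives of probe choice, detection filter or averaging of spots used the same 1 spot per array and could not change it. Those on single arrays only repeat the ratios that were averaged.

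A further 2 probes match Bcl2l11 and were not above background in either pool. The probe for transcript NM_001284410 had net signals, that is spot minus local background, of 15 and 21.5 intensity units in the transgenic pool, against 15 and 16 in the wild-type pool. A second probe for NM_207680 had 13 and 13.5 units in the transgenic pool, against 16 and 12 in the wild-type pool. The detected probe, also for NM_207680, had 113.5 and 29 units in the transgenic pool, against 156 and 155 in the wild-type pool, the low value being Cy5 on array 2. Raw units of different dyes are not comparable, and the dim probes say nothing on the direction of Bcl2l11.

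Of the other BH3-only members, Bid had the highest mean ratio of the 8 detected members, and Bbc3 changed sign between arrays. Bid, which links death receptors to mitochondria once caspase-8 has cut it, read 6.85 and 6.85 in the transgenic pool, against 6.70 and 6.67 in the wild-type pool. The pools differed by 0.17 ± 0.02, or 1.12-fold, though the transgenic signal was not well above background on array 2. The scanner software put the ratio at 0.41 ± 0.30 on array 1 and at 0 on array 2, where its error was 1.11 (± being its own error here). Bbc3, the p53-induced gene for PUMA, read 7.42 and 6.86 in the transgenic pool, against 7.21 and 7.30 in the wild-type pool. Its ratio was 0.21 on array 1 and −0.44 on array 2, where the transgenic signal was not well above background, with a mean of −0.11 ± 0.46. By the scanner's own log ratios the signs were the other way round, −0.30 and 0.21, so Bbc3 has no direction.

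Bad, whose protein is held inactive by growth factor signalling, was well above background only in whichever pool carried Cy3. It read 6.36 and 6.52 in the transgenic pool, against 6.32 and 6.60 in the wild-type pool, and the pools overlap. Pmaip1, the NOXA gene and another p53 target, gave no transgenic signal well above background on either array, and a wild-type signal above that limit on array 2 alone. Its levels were 6.17 and 6.14 in the transgenic pool, against 6.50 and 6.36 in the wild-type pool, so that the transgenic pool was the lower on each array. The scanner software gave −1.71 and −1.48 for Pmaip1 with errors of 0.84 and 0.93, from net signals of 10 and 2 units in the transgenic pool, against 32 and 20 in the wild-type pool. Of these 4 signals, 3 were not well above background, and no fold is given.

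The protective members did not move together. Mcl1, which encodes a short-lived protein needed by many cell types, read 10.41 and 10.51 in the transgenic pool, against 10.38 and 10.55 in the wild-type pool. The pools overlap, and the mean ratio was −0.0085 ± 0.05. A dimmer Mcl1 probe was lower in the transgenic pool by the same amount on both arrays, −0.25 and −0.25, though its transgenic signal on array 2 was not well above background. Bcl2, the founding member of the family, was read by probes for transcripts NM_177410 and NM_009741. The first read 7.57 and 7.79 in the transgenic pool, against 7.65 and 7.62 in the wild-type pool, a mean ratio of 0.04 ± 0.18. The second, printed 10 times, had a mean of −0.10 ± 0.13, with array means of −0.19 and −0.0026 over 9 spots each. On array 2, 2 of its 9 transgenic spots were well above background.

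Bcl2l1, the BCL-XL gene, had the largest difference on a single array. Its brightest probe, also printed 10 times, read 8.20 and 9.44 in the transgenic pool, against 9.10 and 9.21 in the wild-type pool. On array 1 all 10 spots were below 0, from −1.65 to −0.22 with a median of −0.87. On array 2 the 8 spots kept ran from −0.18 to 0.46 with a median of 0.25, and 7 of them were above 0, so the spots of the 2 arrays do not overlap. The difference between arrays (means of −0.90 and 0.22) was larger than the SD among spots, 0.35 on array 1 and 0.21 on array 2. On both arrays the Cy5 side was the brighter, whichever pool it carried, and whether the disagreement comes from the dyes was not tested. On array 1 alone Bcl2l1 would be called lower, as were 5.35% of detected genes there, and it was the only member past 1.5-fold on array 1, where 13.4% of genes were past it either way. On array 2 alone no member was, against 20.2% of genes. The mean of −0.34 ± 0.79 therefore gives no direction. With median centring the gene was lower on both arrays (−0.93 and −1.36) and passed the rule, relative to a median of all genes of −0.57. Averaged over its 3 probes it was at −0.25 and −0.0042. The remaining Bcl2l1 probes had −0.08 and 0.31 in the first case and 0.24 and −0.54 in the second, so none of the 3 probes kept a sign over the arrays. For both remaining probes the transgenic signal on array 2 was not well above background, so their signs there are uncertain.

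**Figure D2:**
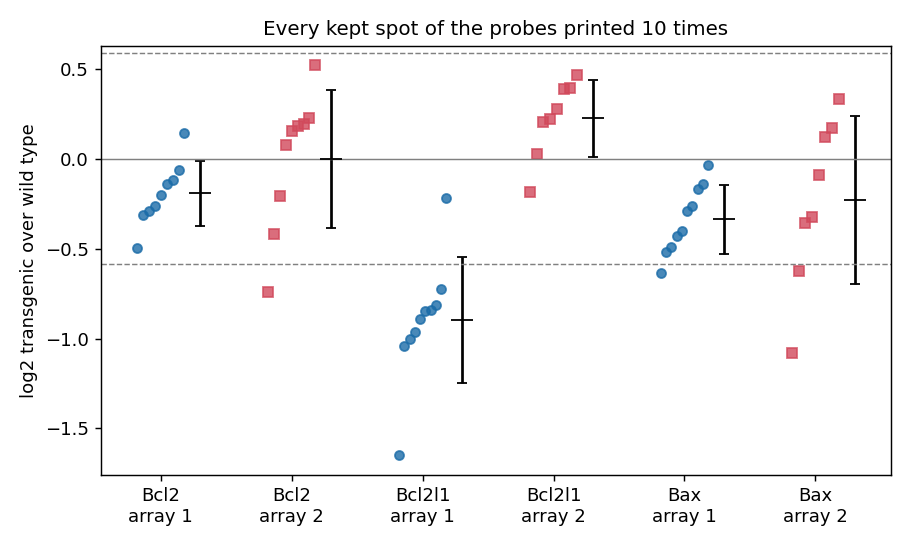
Log2 ratio of transgenic over wild type (vertical axis) for each kept spot of the probes of Bcl2, Bcl2l1 and Bax that were printed 10 times, sorted within arrays 1 (circles) and 2 (squares). Black marks are the mean and SD over spots of 1 array, which are not replicates, and dashed lines mark 1.5-fold: the Bcl2l1 spots of the 2 arrays are apart, while those of Bax overlap around −0.28.

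Neither effector, Bax or Bak1, passed the rule. Bax read 7.23 and 7.43 in the transgenic pool, against 7.57 and 7.66 in the wild-type pool. Its mean ratio was −0.28 ± 0.08, a wild-type level 1.22-fold that of the transgenic pool, and spots below 0 numbered 10 of 10 on array 1 and 5 of 8 on array 2. The SD among spots was 0.19 on array 1 and 0.47 on array 2, where 3 of 8 transgenic spots were well above background. By the scanner's own log ratios Bax was at −0.53 and −0.74, a mean of −0.63 that fell short of the rule on array 1. Bak1 read 6.99 and 7.18 in the transgenic pool, against 7.18 and 7.22 in the wild-type pool, a mean of −0.12 ± 0.10. The second Bak1 probe was at −0.11 and −0.27, though its transgenic signal on array 2 was not well above background. The scanner software put that probe at −0.71 and −0.02. The sign of Bak1 turned without background subtraction (0.02), by the scanner's own log ratios (0.02) and in the authors' deposited table (0.0058), so its direction is not settled.

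**Figure D3:**
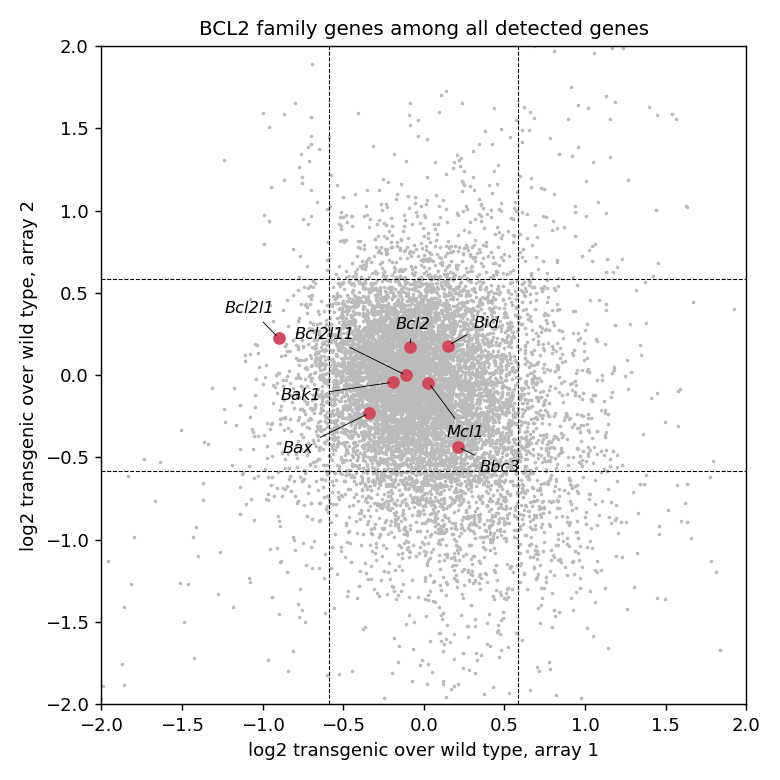
Log2 ratio of transgenic over wild type on array 1 (horizontal) and array 2 (vertical) for all detected genes (grey) and the 8 detected BCL2 family genes (red), with dashed lines at 1.5-fold and 108 genes outside the axes. Called genes lie beyond both lines in the lower left or upper right corner, and none of the 8 does, Bcl2l1 being past the line on array 1 alone.

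Taken by probe, 13 of 17 were detected and none passed the rule, which called 2.22% of detected probes. Of the 13, 6 were below 0 on both arrays, 1 was above 0 on both and 6 changed sign. By gene, 54.6% of all detected genes had opposite signs. Many of the signs on array 2 rest on dim signals. The dimmer probes of Bcl2, Bcl2l1, Mcl1 and Bak1, like those of Bax, Bbc3 and Bid, lacked a transgenic signal well above background there. Among members with more than 1 detected probe, Bak1 had each of them below 0 on both arrays, and Bcl2, Bcl2l1 and Mcl1 did not. With the brightest detected probe, the transgenic pool gave a readable signal on both arrays for 5 members (Bcl2l11, Bcl2, Bcl2l1, Mcl1 and Bak1). Bax, Bbc3 and Bid were detected through the wild-type pool.

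**Figure D4:**
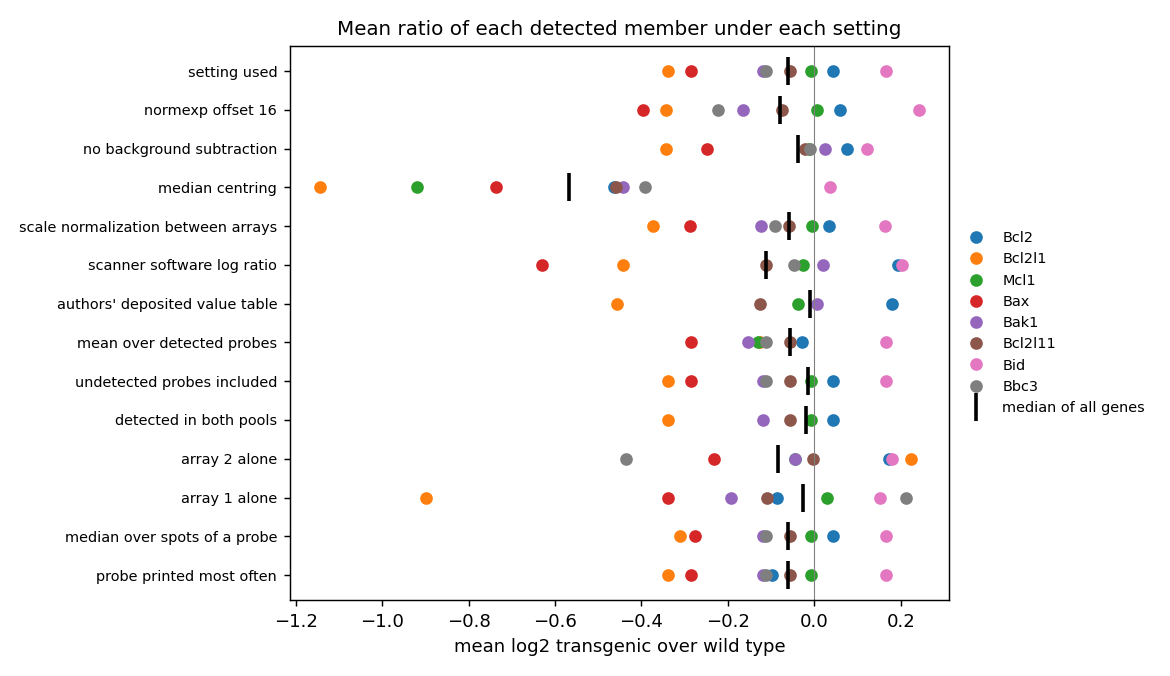
Mean log2 ratio of transgenic over wild type (horizontal axis) of the 8 detected members under the setting used and the alternatives (rows), with the median of all genes as a black bar. Where both arrays were used and Bid was measured, Bid was the highest and Bcl2l1 or Bax the lowest, and median centring moves the members together with the median of all genes, to −0.46 and −0.57.

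The rest of the family was described from lists that were chosen with earlier results known. Of 20 other BCL2 family and BNIP genes, 14 were detected, 1 was lower, none was higher and 13 passed in neither direction, with a median of −0.14. The lower gene was Bnip3, a hypoxia-induced gene whose protein acts in mitochondrial autophagy and binds BCL2. It read 8.63 and 7.88 in the transgenic pool, against 9.27 and 8.76 in the wild-type pool, and was 1.69-fold lower (−0.76 ± 0.17). The call held in every alternative at 1.5-fold that measured the gene, although the transgenic signal was well above background on 1 of 2 arrays. Bnip3l, its close relative, did not pass the rule.

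Bcl2a1b belongs to a cluster of near-identical A1 genes, protective members used mainly by blood cells, so the probe cannot be assigned to a single copy with certainty. It read 6.36 and 6.22 in the transgenic pool, against 6.93 and 6.89 in the wild-type pool. The ratio of −0.62 ± 0.07 missed the rule on array 1 (−0.56). It passed with an offset of 16 (−0.86 and −1.27), after scale normalization and by the scanner's own log ratios (−1.62 and −2.26), and shrank without background subtraction on array 2 (−0.09). Its transgenic signal was well above background on 1 array. Of 12 myeloid markers listed, 9 were detected, 4 were lower (Cd74, Lyz1, C1qc and Mrc1), none was higher and 5 passed in neither direction, beside 1.3% of all genes called lower. All 9 means were below 0, from −2.09 for Cd74 to −0.51, with a median of −0.67. The call of C1qc ended after scale normalization, by the scanner's own log ratios and in the authors' deposited table (−0.55, −0.40 and −0.42 on array 2), and that of Mrc1 without background subtraction (−0.30 on array 2) and after scale normalization (−0.56). Of 11 lymphoid markers 5 were detected and Jchain (−1.94 ± 0.16) and Ccl5 (−0.74 ± 0.06) were lower, with a list median of −0.45. The Ccl5 call ended without background subtraction (−0.57 on array 2). Cd3e was at −0.07 and 0.31 and Nkg7 at −0.34 and 0.24, so the lymphoid list did not move as a whole. Lyz1, Mrc1, Jchain and Ccl5 were detected through the wild-type pool, their transgenic signal being well above background on 1 of 2 arrays, and Ms4a1, Cd4 and Cd8a were not detected. The part of blood cells in the Bcl2a1b value was not tested.

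Other family members disagreed between arrays or stayed small. Bcl2l2, the gene of the protective protein BCL-W, was at −0.14 and −1.18. Bmf, a BH3-only gene, was at −0.95 and 0.43, and Bik, another, at −0.32 and −0.02. Bnipl was at −0.51 and −0.32. For Bcl2l2, Bik and Bnipl the transgenic signal was well above background on 1 of 2 arrays. Hrk, Bok, Bcl2l10, Bcl2a1a, Bcl2a1c and Bcl2a1d gave no detected value.

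Downstream of the mitochondria no gene passed the rule. Of 14 genes for cytochrome c, the apoptosome and caspases, 11 were detected with a median of −0.12. Diablo, whose protein SMAC is released with cytochrome c and blocks inhibitors of apoptosis, had the mean ratio of the list furthest from 0, at −0.69 ± 0.39 (−0.41 and −0.96). The transgenic signal of Diablo was well above background on 1 of 2 arrays. Htra2, another released protein, was at −0.36 ± 0.0059, and Cycs, the cytochrome c gene, at 0.07 and 0.05 on the 2 arrays. Apaf1 was not detected. Of 7 inhibitors of apoptosis, 6 were detected with a median of −0.0054, and Xiap, which blocks active caspases, was at 0.01 and 0.03. Of 11 death receptor genes, 7 were detected with a median of −0.22, and Fas was at −0.31 ± 0.03 and Casp8, which cleaves BID, at −0.70 and 0.0063.

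Of 12 regulators or partners of BIM, 10 were detected, 1 was lower, none was higher and 9 passed in neither direction, with a median of −0.27. The lower gene was Ywhae, a 14-3-3 protein gene, at −0.76 ± 0.08, but its other detected probe was at −0.25 and 0.14, and the call ended with the mean over probes (−0.41), by the scanner's own log ratios (−0.54 on array 2) and in the authors' deposited table (−0.56 on array 2). Mapk3, which encodes a kinase that marks BIM for degradation, was at −0.44 ± 0.26, below 0 on both arrays and short of the rule. Foxo1, whose protein family activates the Bcl2l11 gene, was at −0.40 ± 0.27, and Foxo3 and Foxo4 were not detected. Ddit3, the stress factor CHOP, was at −0.04 and −0.15.

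**Figure D5:**
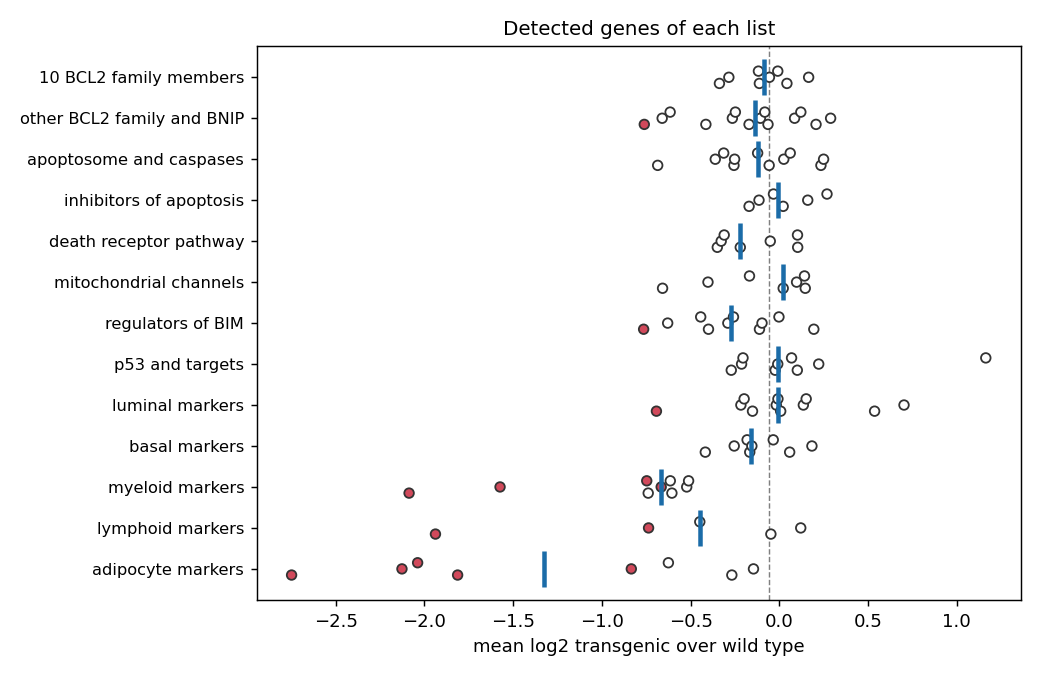
Mean log2 ratio of transgenic over wild type (horizontal axis) of each detected gene in the lists of apoptosis genes and of cell type markers, filled where the gene passed the rule, with the list median in blue and the median of all detected genes as a dashed line. The apoptosis lists lie around the dashed line with 2 called genes, Bnip3 and Ywhae, while the medians of the myeloid, lymphoid and adipocyte markers are at −0.67, −0.45 and −1.32.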

How the data were processed

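Total RNA (100 ng per pool) was labelled with Cy3 or Cy5 for Agilent arrays (labels' protocols). The deposited spot and background signals are median pixel intensities, per the file headers, and Feature Extraction 11.0.1.1 made them. The scanner software's log ratio and its error, also in these files, are in log10 of Cy5 over Cy3, per the file headers, and were converted to log2. The authors' deposited table is in log2 units, follows the scanner log ratio of transgenic over wild type (r and slope both 1) after a shift by a constant per array that sets the median to 0, and holds 8498 non-control probes, all well above background in both pools.

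Directions rest on the dyes in the labels. Signals were corrected by normexp (offset 50) and normalized by loess in limma 3.58.1 under R 4.3.3, with control and outlier spots at weight 0. Outlier spots, 157 and 177 of 43379, were left out, no spot was saturated, and spots of a probe were averaged. A probe was well above background where at least 50% of its spots were. Levels of the pools were taken after Aquantile normalization between arrays, and levels of different probes were not compared. Names came from accessions matched without versions to a RefSeq table of GRCm38.p6 (27816 of 41174 probes); the array annotation cites mm9, so no gene coordinates are given. The number of arrays limits the precision, and spots of the same probe (245 probes, 10 spots each) had a median SD of 0.17 on array 1 and 0.23 on array 2, or 0.22 and 0.32 over the 123 detected. Calling by size was tested on simulated data with independent noise, no dye effect and no dim signals. That test checked the rule, with the signs of the dyes set within the simulation. It checked neither the turning of the dyes on these arrays nor their error rate.

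The members and lists were chosen with earlier results of these data known. By rule, the text could name all members, each list gene past the size rule and up to 4 of the largest mean ratio per list. Bnip3l, Bmf, Bik, Cycs, Xiap, Ddit3, Nkg7 and genes that were not detected were named after their values were seen. Alternatives varied the background correction, normalization, signal, probe choice, detection filter, fold and array. Summaries used Python 3.11.15 (numpy 2.4.6, pandas 2.3.3) and plots matplotlib 3.10.9.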

Additional observations from a re-analysis of the deposited data

How the results depend on the processing

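Of 14 alternatives, 12 were planned and 2 were chosen after seeing the data (the median over spots, and the probe printed most often). No member passed the rule in any of them except Bcl2l1, with median centring (1 member called) and on array 1 alone, so that leaving out either array gave 0 to 1 called members. The median log2 ratio of the members moved by more than the SD over arrays without background subtraction (−0.0104), with median centring (−0.46) and on array 2 alone, and was −0.10 to −0.0225 on single arrays. Bcl2l11 moved by more than its SD only with median centring (−0.46) and was −0.11 to −0.0017 on single arrays. All genes called numbered 389 with an offset of 16, 556 with median centring, 874 with the scanner software's log ratios, 62 at 2-fold and 1403 to 2113 on single arrays, against 231. For the other 7 members, 70 of 85 values moved by less than the SD over arrays and 15 by more. A gene's value on a single array cannot differ from its mean over both by more than that SD. Alternatives that kept the same probe and spots left the value unchanged. The 70 therefore do not measure stability. The cause of these shifts was not tested. The weak Cy5 signal of array 2 limits Bax, Bbc3 and Bid, which were not well above background in the transgenic pool there. No paired analysis was possible because each genotype is 1 pool and both arrays hold the same pair of pools.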

Other observations

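Lists beside the family gave values that belong to none of the comparisons above. Of 10 genes of p53 and its targets, 9 were detected and none passed the rule, with a median of −0.0087. Pidd1, a p53-induced death domain gene, had the highest mean ratio of that list, at 1.93 on array 1 and 0.40 on array 2 (1.16 ± 1.08), while Perp was at 0.13 and −0.67 and Sesn2 at 0.22 ± 0.10. Of 7 genes of mitochondrial channels and carriers, 7 were detected and none passed the rule, with a median of 0.02. Tspo, the translocator protein of the outer membrane, was at −0.74 and −0.57 and missed the rule on array 2, and the channel genes Vdac2 and Vdac3 were at 0.51 and −0.22 and at 0.01 and −0.35. No gene passed the rule among 8 fibroblast, 7 smooth muscle and 6 endothelial markers detected, with medians of −0.19, −0.02 and −0.04. Of 8 adipocyte markers detected, 5 were lower (Cfd, Fabp4, Car3, Adipoq and Retn), beside 1.3% of all genes. Of these, Fabp4 alone had transgenic signals well above background on each array, the other 4 being detected through the wild-type pool, and the Retn call ended with the mean over probes (−0.58 on array 2).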
